A study of Sus scrofa domesticus with 4 samples.

Results

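The insulin-like growth factor (IGF) system was followed in porcine anterior pituitary cells cultured in the presence or absence of adiponectin, a hormone secreted by fat cells. The genes described are the ligands IGF1 and IGF2, the receptors IGF1R and IGF2R, and the binding proteins IGFBP2, IGFBP3, IGFBP4, IGFBP5, IGFBP6 and IGFBP7. Every non-control probe whose accession belongs to 1 of these 10 genes in the RefSeq annotation of Sscrofa11.1 was taken, which gave 18 of the 43603 probes of the array for 9 of the 10 genes. No probe matched IGF2R, which was not analysed here. Of the 18 probes, 17 probes of 8 genes passed the filter on dim probes and were tested. The IGFBP3 probe was well above background on arrays 3 and 4 only, so it was not tested and is described by its levels.

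The IGFs are small peptides related to insulin that act through IGF1R, a receptor tyrosine kinase, while IGF2R, the cation-independent mannose 6-phosphate receptor, takes up IGF2 for degradation. The binding proteins hold the peptides in blood and in the fluid around cells, where they can keep them from the receptor or deliver them to it. In the pituitary, IGF1 from the circulation restrains the synthesis and release of growth hormone and so closes the feedback loop of the growth hormone axis.

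Anterior pituitary lobes came from 4 mature Large White x Polish Landrace gilts, 7 to 8 months old, killed at mid-luteal phase (cycle days 10 to 12). One characteristic in the labels files those days under pregnancy. The trypsin-dispersed cells, a mixture of the cell types of the lobe, attached for 48 h in medium with serum. They were then kept for 24 h in serum-free medium with bacitracin, either alone (control) or with recombinant human adiponectin at 10 µg/ml (treated). Each of 4 2-colour arrays carried 1 treated and 1 control RNA. By the channel labels, treated RNA was red (Cy5) on arrays 1 and 3, and green (Cy3) on the other arrays, 2 and 4. No label ties a gilt to an array or states that paired RNAs share a gilt, so p-values measure the spread between these 4 arrays, which may be technical.

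Each channel had from 25089 to 29734 probes well above background, 25912 probes were tested, and 0 spots were saturated. Of 10 hormone-cell genes listed as a check of the tissue, 8 had a probe and all 8 were well above background on every array, among them GH1, PRL, POMC, LHB and FSHB. The treated over control log2 ratios of arrays with opposite dyes correlated negatively across probes (r = -0.48 to -0.43), and those of arrays with the same dyes positively (r = 0.26 and 0.57). The fitted ratios below come from a model with a dye term, which the ratios of single arrays lack. The labelling protocol reads differently from the channel labels, with treated RNA in Cy5 throughout, and under that reading the dye effect and the treatment cannot be told apart.

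The first question was whether adiponectin changed the expression of the IGF genes. None of the 17 tested probes passed the threshold in either direction, an adjusted p under 0.05 over all tested probes by limma with Benjamini-Hochberg adjustment, where 0% of all probes passed. The adjusted p of every member was 1.00 after rounding. The fitted treated over control ratios of the 17 probes ran from -0.05 to 0.13 on the log2 scale, and all 17 of their 95% intervals held 0. At an unadjusted p under 0.05 none of the 17 passed either, against 717 of all 25912 probes (2.77%), and the lowest unadjusted p of a member was 0.0853. The fit of separate channels with the array as a block called 0 of the members and 0 of all 25037 probes in it. Within the main model, the intervals bound a change between these arrays: all 17 lay within 1.5-fold in either direction and 12 within 1.2-fold. The share of all tested probes within these bounds was not counted, so these counts are not read as a trait of the IGF genes. Standard errors differed between models: that of IGFBP5 was 0.11 in the main model and 0.25 with separate channels. For IGF1 they were 0.063 and 0.047. Over all members the lowest bound was -0.26 (IGFBP5) and the highest 0.33 (IGF2). Leaving out 1 array leaves a single array with treated RNA in 1 of the dyes. Without array 2 or without array 4, every member gene had the same standard error, 0.077. The p-values of those fits thus did not measure a probe's own spread between arrays. Some probes of the whole array passed the threshold without array 2, 3 or 4, and none did without array 1. No conclusion on the members is drawn from these calls.

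**Figure D1:**
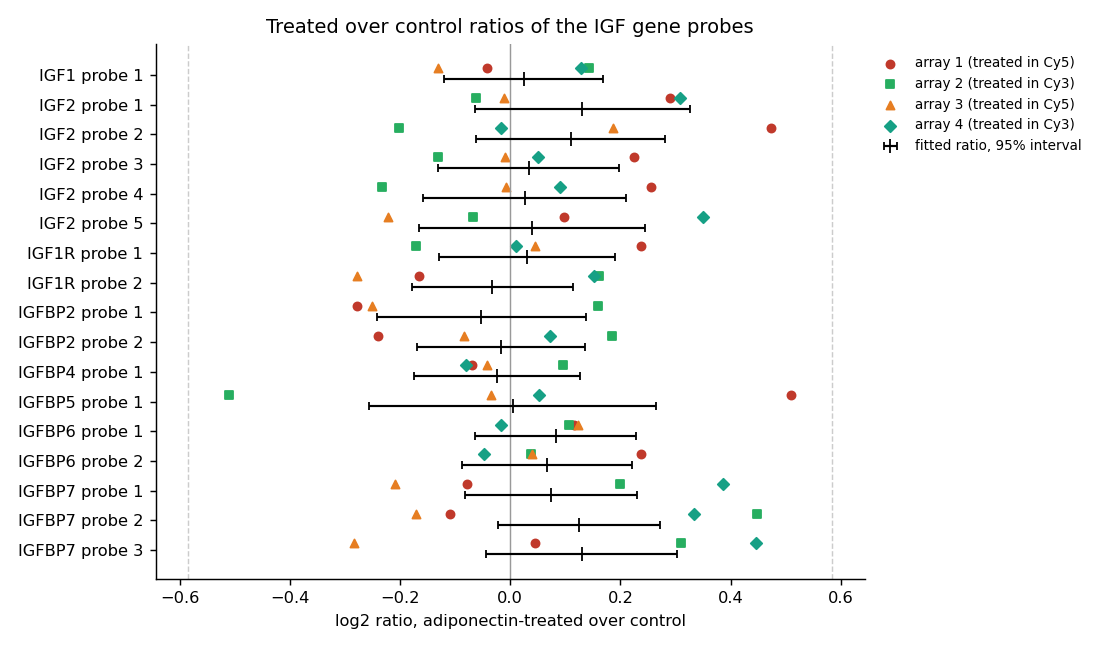
Treated over control log2 ratio (x axis) of each of the 17 tested probes of the IGF genes, 1 row per probe, with points for single arrays marked by array and a black tick and bar for the fitted ratio and its 95% interval, dashed lines at 1.5-fold, and probe 1 of each gene its brightest. Fitted ratios sit between -0.05 and 0.13, every interval crosses 0, and points of opposite dye often fall on opposite sides of 0.

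Of the ligands, IGF1, the main mediator of growth hormone action, had 1 probe (A_72_P232282). Its normalized log2 level was 7.80, 8.07, 7.70 and 7.84 in the treated RNA of arrays 1 to 4 and 7.84, 7.93, 7.83 and 7.71 in the control RNA. The ranges overlapped, and treated RNA was the higher on arrays 2 and 4, where it carried Cy3. The fitted ratio was 0.024 (1.02-fold, 95% interval -0.12 to 0.17).

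IGF2, a ligand best known as a growth factor of the fetus and its placenta, had 5 tested probes. At the brightest (A_72_P303139) the log2 level was 9.66, 9.53, 10.61 and 10.40 in treated and 9.37, 9.59, 10.62 and 10.10 in control RNA. Treated RNA was the higher on arrays 1 and 4, by 0.29 and 0.31, and the lower on arrays 2 and 3, by 0.06 and 0.01. The fitted ratio of 0.13 (1.10-fold, -0.06 to 0.33) was the highest of the 17. It ran from 0.039 without array 4 to 0.22 without array 2. The other 4 probes had ratios of 0.11, 0.033, 0.026 and 0.039, so that all 5 were above 0 and none passed the test.

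IGF1R, the receptor through which both ligands signal, had 2 probes whose ratios differed in sign. At the brighter probe (A_72_P440946) the log2 level was 9.34, 8.86, 9.24 and 9.28 in treated and 9.11, 9.03, 9.19 and 9.27 in control RNA. The groups overlapped and the ratio was 0.030 (1.02-fold, -0.13 to 0.19). The other probe gave -0.033 (-0.18 to 0.11). The mean of both was -0.0012, and the brighter probe's ratio was -0.018 without array 1 and -0.015 without array 4.

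Among the binding proteins, IGFBP2, an abundant binding protein of serum and of many tissues, gave ratios below 0 at both of its probes. The brighter probe (A_72_P634395) was measured on 3 arrays, since its spot on array 4 had an uneven local background. There the log2 level was 11.66, 10.97 and 11.37 in treated RNA of arrays 1 to 3 and 11.94, 10.81 and 11.62 in control RNA, with a fitted ratio of -0.05 (0.964-fold, -0.24 to 0.14). Treated RNA was the lower on arrays 1 and 3 and the higher on array 2. The other probe, measured on all 4 arrays, had a ratio of -0.017 (-0.17 to 0.14), which was 0.022 without array 1.

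IGFBP3, the main carrier of IGFs in blood, had log2 levels of 6.23, 6.61, 6.97 and 6.84 in treated and 6.36, 6.31, 7.17 and 6.53 in control RNA. Both ranges overlapped, and the probe was not well above background in either RNA on arrays 1 and 2.

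IGFBP4, a binding protein that restrains IGF action and is cut by the protease PAPPA, lay close to background. Its probe (A_72_P441554) had log2 levels of 6.37, 6.73, 7.03 and 6.70 in treated and 6.44, 6.64, 7.07 and 6.78 in control RNA, and was well above background on 3 arrays in each. The ratio was -0.024 (0.983-fold, -0.17 to 0.13), with overlapping ranges in treated and control RNA. It was 0.020 without array 4, and 0.0059 from the scanner software's own ratios.

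IGFBP5, a binding protein of matrix and connective tissue, showed the widest ratios on single arrays. Its only probe (A_72_P146706) had a log2 level of 12.57, 11.75, 14.52 and 14.01 in treated and 12.06, 12.26, 14.55 and 13.96 in control RNA. On array 1 treated RNA was the higher by 0.51 and on array 2 the lower by 0.51. Red exceeded green by 0.51 on both of these arrays, and on arrays 3 and 4 the red over green ratio was -0.035 and -0.053. The fitted treated over control ratio was 0.0043 (1.00-fold, -0.26 to 0.27), with the widest interval of the 17 probes. Its sign turned without array 1 (-0.13) or without array 4 (-0.14), and it was -0.035 from the scanner software's ratios and from the deposited series matrix.

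IGFBP6, which prefers IGF2 over IGF1, had treated over control ratios above 0 on 3 of 4 arrays at both of its probes. At the brighter of 2 probes (A_72_P088481) the log2 level was 12.30, 12.55, 12.16 and 11.73 in treated and 12.18, 12.44, 12.03 and 11.75 in control RNA. Treated RNA was the higher by 0.12, 0.11 and 0.12 on arrays 1 to 3 and the lower by 0.017 on array 4, although the groups overlapped across arrays. The fitted ratio was 0.08 (1.06-fold, -0.06 to 0.23). At the other probe, with 0.07 (-0.09 to 0.22), the first 3 arrays were again above 0 and array 4 below it.

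IGFBP7, a secreted protein of vessel walls and stroma that binds IGFs weakly, had 3 probes with ratios of 0.07, 0.13 and 0.13. The log2 level at the brightest (A_72_P422899) was 13.77, 13.88, 15.49 and 15.35 in treated and 13.85, 13.68, 15.70 and 14.96 in control RNA. Treated RNA was the lower on arrays 1 and 3 and the higher on arrays 2 and 4, and green exceeded red on all 4. The fitted ratio was 0.07 (1.05-fold, -0.08 to 0.23). The second probe (A_72_P588456) had the lowest p of all members, 0.0853, with a ratio of 0.13 (1.09-fold, -0.02 to 0.27). Under the reading of the labelling protocol the brightest probe's ratio was -0.22, with an adjusted p of 0.0717 by limma. Its sign thus rests on which RNA was red on arrays 2 and 4. The deposited series matrix, whose sign on those arrays follows the channel labels, gave 0.083. Under the protocol's reading IGFBP2 and IGFBP5 kept their signs, at -0.23 and 0.23, where the main model gave -0.05 and 0.0043.

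**Figure D2:**
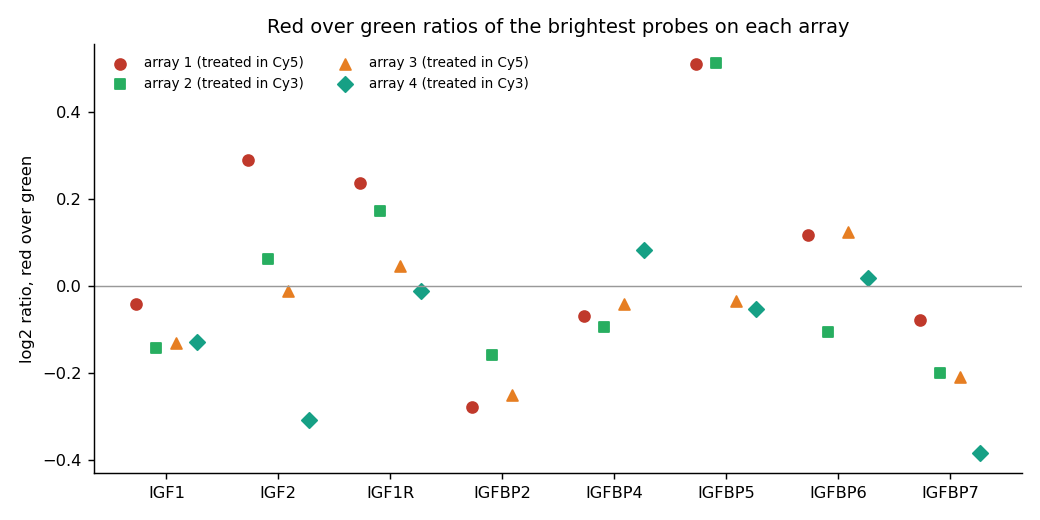
Red over green log2 ratio (y axis) of the brightest tested probe of each gene on the 4 arrays, marked by array. IGFBP7 lies below 0 on all 4 arrays whichever RNA was red, and IGFBP5 lies at 0.51 on arrays 1 and 2.

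As a group, the brightest probes of 6 genes had a fitted ratio above 0 and those of 2 genes below 0. Of all 17 probes, 13 were above 0, where 50.7% of all tested probes were, and probes of 1 gene measure the same transcript and are not independent. The median ratio was 0.027 over the 8 genes, against 0.0012 over all tested probes. On single arrays, dye effect included, the median of the genes was 0.037, 0.10, -0.039 and 0.053. With the dye removed its SD between arrays was 0.045, which is not the error of the fitted median. The fitted median was 0.081 with median centring in place of loess, where the median of all probes was 0.031, and 0.079 without array 3. It was 0.014 when probes of 1 gene were averaged and -0.012 under the reading of the labelling protocol. Of the 16 member probes with a value on all 4 arrays, none was above 0 on every array, against 3.01% of all probes, and none below 0 on every array, against 2.94%.

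Levels were also compared between arrays. Taking the mean of the 2 RNAs on each array, IGFBP5, IGFBP7 and IGF2 were higher on arrays 3 and 4 than on arrays 1 and 2. IGFBP5 stood at 12.31, 12.00, 14.54 and 13.98 on arrays 1 to 4, a 5.80-fold span from the lowest to the highest array. The treated and the control RNA both showed it: the median foreground intensity of treated RNA was 6026.5, 2752.5, 29799 and 19815 and that of control RNA 3026, 5496.5, 25530 and 15250 before any correction. Nothing in the labels sets these arrays apart, so no test was made of arrays 3 and 4 against arrays 1 and 2. In RNA of mixed cells, fewer cells of a type and less RNA per cell cannot be told apart.

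IGFBP7 stood at 13.81, 13.78, 15.60 and 15.16 at its brightest probe, a 3.53-fold span, and its other probes spanned 3.17-fold and 3.97-fold in the same pattern. IGF2 stood at 9.52, 9.56, 10.62 and 10.25, a 2.15-fold span, and its 5 probes spanned between 1.67-fold and 2.70-fold. All 5 IGF2 probes and all 3 IGFBP7 probes were highest on array 3. Without array 3 the spans fell to 3.95-fold for IGFBP5, 2.60-fold for IGFBP7 and 1.66-fold for IGF2. Under 5 other ways of scaling the levels they ran from 5.38-fold to 7.07-fold, from 3.21-fold to 4.60-fold and from 2.17-fold to 3.13-fold.

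**Figure D3:**
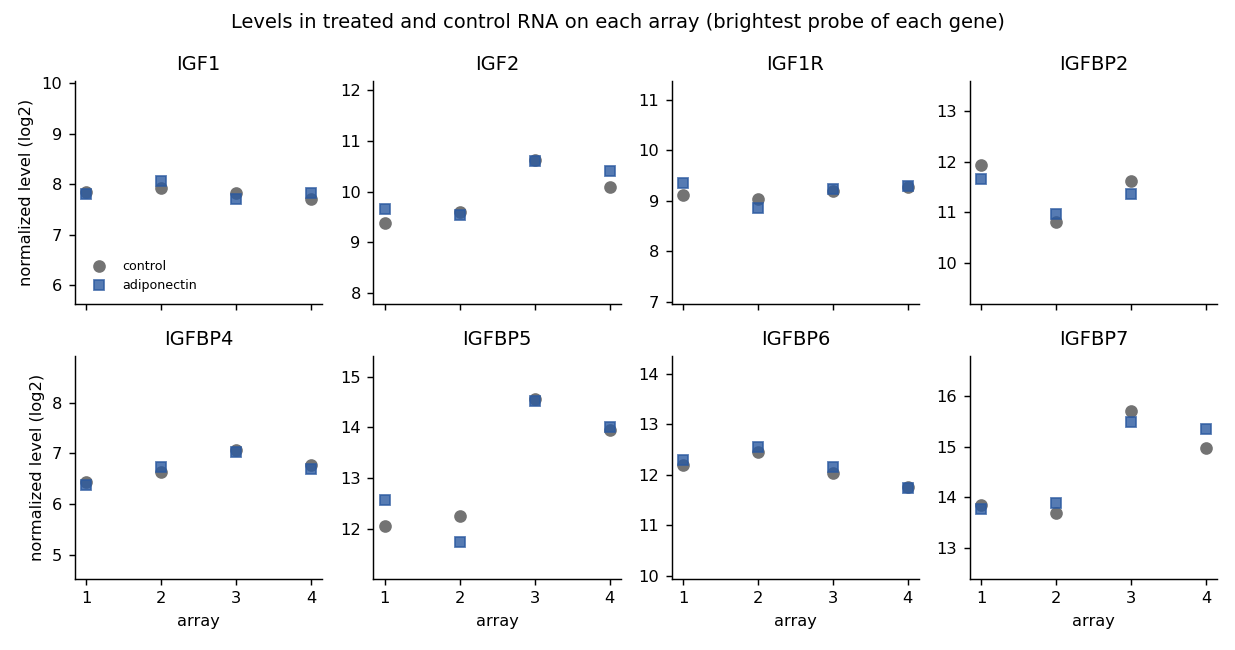
Normalized log2 level (y axis) of the brightest probe of each gene in treated and control RNA on arrays 1 to 4 (x axis), for the 8 genes tested; every panel spans the same height. In IGFBP5, IGFBP7 and IGF2 both RNAs are higher on arrays 3 and 4 than on arrays 1 and 2, while IGF1 and IGF1R stay nearly level.

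The spans of the other genes were under 2-fold. IGFBP2 was lowest on array 2 at both probes, with spans of 1.88-fold over 3 arrays and 1.70-fold over 4. IGFBP6 was lowest on array 4 at both probes, spanning 1.69-fold and 1.35-fold. IGFBP4 and the untested IGFBP3 probe were highest on array 3 and lowest on array 1, with spans of 1.56-fold and 1.71-fold at levels close to background. Both were also higher on arrays 3 and 4 than on arrays 1 and 2. The span of IGFBP4 rested on the background correction: it was 2.36-fold with offset 0 and 4.39-fold from the scanner software's processed signals, where IGFBP7 spanned 3.21-fold and IGF2 2.30-fold. IGF1 spanned 1.18-fold, and the IGF1R probes 1.26-fold and 1.17-fold. IGFBP2 and IGFBP5 are neighbours in the gene order of Sscrofa11.1, and their highest arrays were array 1 and array 3.

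Set against all tested probes, 8 of the 17 member probes spanned at least 2-fold between arrays, where 4.13% of all probes did. These 8 were the IGFBP5 probe, the 3 IGFBP7 probes and 4 of the IGF2 probes, so they stand for 3 genes. A span of at least 4-fold was reached by the IGFBP5 probe alone among the members and by 0.367% of all probes. The median span of the 17 was 0.91 on the log2 scale and that of all tested probes 0.34. For 16 of the 17 probes the span between arrays exceeded the largest treated over control ratio on any array, where 65.2% of all tested probes did so. The highest such ratio of a member was 0.51.

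**Figure D4:**
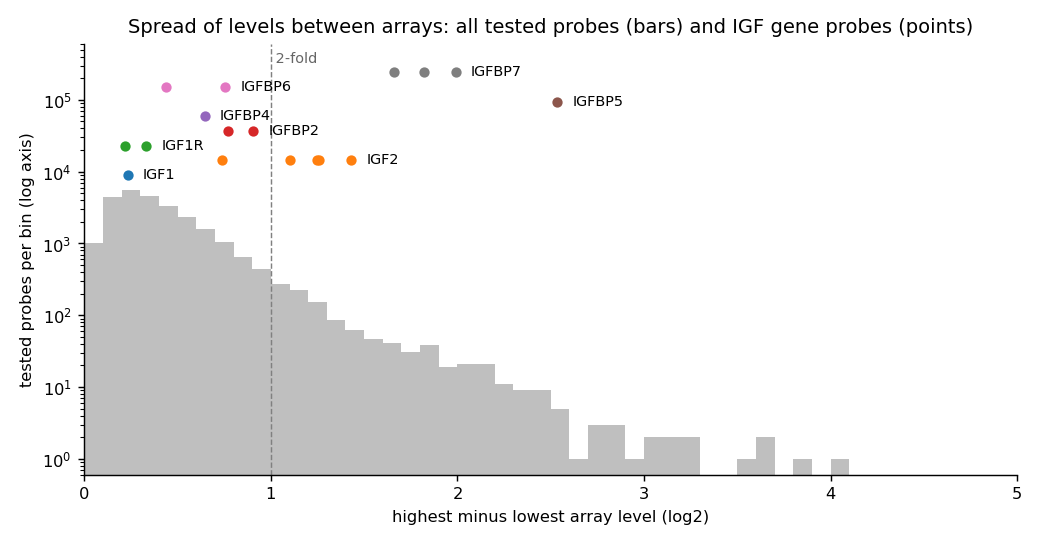
Distribution over all 25912 tested probes of the difference in log2 level between the highest and the lowest array (x axis, number of probes on a log y axis), with the 17 probes of the IGF genes marked above it at heights that carry no value. IGFBP5 at 2.54 and the 3 IGFBP7 probes between 1.66 and 1.99 lie in the upper tail, while IGF1 and IGF1R lie at or below 0.33.

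Markers of other cell types also differed between arrays, and their part in the levels of IGFBP5, IGFBP7 and IGF2 was not tested. Of 7 fibroblast and pericyte genes listed, 2 were tested. ACTA2, smooth muscle actin, stood at 14.71, 14.75, 15.11 and 14.76 and DCN, the matrix proteoglycan decorin, at 8.06, 7.92, 8.08 and 8.08, so neither spanned more than 1.32-fold. Of 5 endothelial genes 2 were tested, and both went the other way from IGFBP5: CDH5, the cadherin of endothelial junctions, stood at 9.54, 8.65, 8.03 and 7.69, and PECAM1 stood at 8.42, 7.86, 7.28 and 7.15.

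Of 10 hormone-cell genes 7 were tested. The gonadotropin subunits were FSHB, at 9.71, 8.71, 10.81 and 10.22, and LHB, at 11.82, 11.17, 12.94 and 11.69. Both were highest on array 3 and lowest on array 2, as were IGFBP5 and 2 of the 3 IGFBP7 probes. So was TSHB, at 6.95, 6.81, 7.32 and 7.03. On array 4 LHB was lower than on array 1, unlike IGFBP5. POMC, at 13.90, 13.69, 14.08 and 12.95, was highest on array 3 and lowest on array 4. GH1 stood at 15.93, 15.985, 15.70 and 15.23, and POU1F1 at 7.39, 6.99, 6.78 and 6.65. Both were lowest on array 4 and higher on arrays 1 and 2 than on arrays 3 and 4. PRL, the prolactin of lactotrophs, was also higher on arrays 1 and 2, with 16.55, 16.42, 15.75 and 15.39. Of 4 folliculostellate genes, SOX2 stood at 11.95, 11.77, 12.37 and 12.46, higher on arrays 3 and 4. ANXA1, at 15.05, 14.84, 14.72 and 14.46, was higher on arrays 1 and 2. Of 5 macrophage genes, AIF1 and CD14 were tested and spanned 1.95-fold and 1.31-fold, and of 4 lymphocyte genes CD3E and LCK spanned 1.09-fold and 1.10-fold. Of 4 posterior lobe and nervous genes, MBP and OXT were tested, and MBP, myelin basic protein, spanned 2.30-fold with its highest level on array 2. MBP, at 9.92, 10.17, 9.27 and 8.98, and OXT, at 14.11, 14.16, 13.69 and 13.70, were both higher on arrays 1 and 2. HBE1, a globin of red blood cells, spanned 1.22-fold. The markers of the liver, the main source of circulating IGF1, gave ALB on 3 arrays and APOA1, spanning 1.29-fold and 1.35-fold. None of these marker genes passed the treatment test. ALB, with a ratio of -0.41, had the other sign at 6 of its 8 tested probes. Single arrays gave 0.95, 1.30 and -1.95 on arrays 1, 3 and 4, and of these only array 4 had treated RNA in Cy3.

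**Figure D5:**
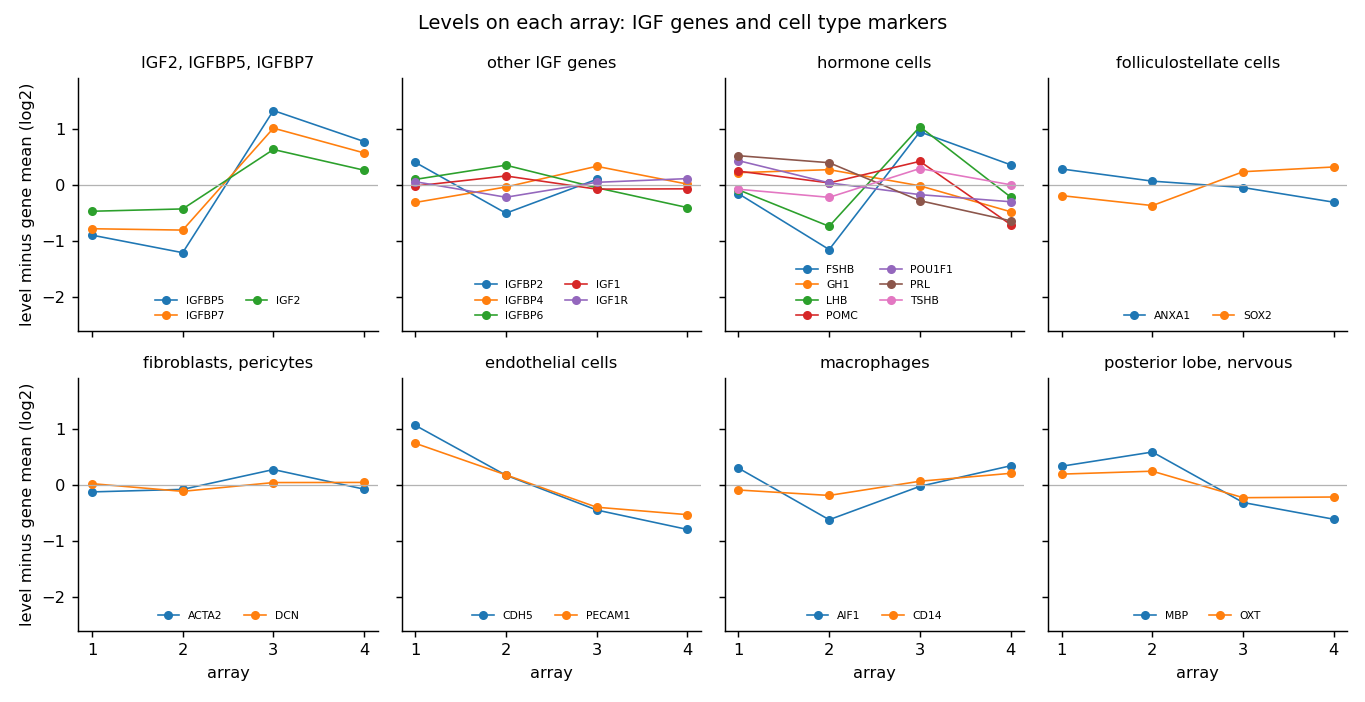
Difference of each gene's log2 level on an array from its mean over the arrays (y axis) for arrays 1 to 4 (x axis), in panels for IGFBP5, IGFBP7 and IGF2, the other IGF genes, and the tested marker genes of 6 kinds of cell. Lines only join the values of 1 gene and imply no order of the arrays, and the endothelial genes CDH5 and PECAM1 run opposite to IGFBP5 and IGFBP7.

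The rest of the pathway was read from lists of 75 further genes, of which 29 had a probe and 25 were tested. None passed the adjusted threshold in either direction. Of the 25, 1, SOCS2, had an unadjusted p under 0.05, for which it is named, where 2.77% of all tested probes did. Ratios were above 0 in 10 and below 0 in 15 genes, with a median of -0.015 against 0.0012 over all probes.

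In the growth hormone axis 11 of 15 listed genes were tested, with 6 ratios above and 5 below 0. SOCS2, a feedback inhibitor of growth hormone receptor signalling, had treated over control ratios of 0.25, 0.10, 0.05 and 0.35 on arrays 1 to 4 and a fitted ratio of 0.19 (0.02 to 0.35, unadjusted p = 0.0341, adjusted p = 1.00 by limma). Its other tested probe also had a ratio above 0. Without array 2 the ratio of the brightest SOCS2 probe was 0.25. SOCS2 levels were 7.71, 7.58, 8.37 and 8.49 on arrays 1 to 4, higher on arrays 3 and 4. Levels of other listed genes ran the other way, such as STC2 at 8.29, 8.45, 7.74 and 7.23. So did ADAMTS1 at 9.08, 8.98, 7.96 and 6.58. GH1, growth hormone itself, gave -0.09 (-0.27 to 0.09), its receptor GHR 0.11 (-0.03 to 0.26) and GHRHR, the receptor for its releasing hormone, 0.030 (-0.16 to 0.22).

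Of 10 genes for the acid-labile subunit, binding-protein proteases and their inhibitors, 4 were tested and all 4 had ratios below 0 at their brightest probe, with a median of -0.07. The other tested probe of ADAMTS1 gave 0.014 and that of PLAU, a plasminogen activator, 0.043. STC2, an inhibitor of PAPPA proteases, gave -0.05 (-0.21 to 0.10). ADAMTS1, a secreted metalloprotease, had a ratio of -0.15 (-0.44 to 0.14) over all arrays, where single arrays gave 0.06, 0.08, 0.08 and -0.83. Its brightest probe was not well above background on every array. Without array 2 its ratio was -0.38, in a fit where array 4 alone had treated RNA in Cy3. Of 34 signalling genes below the receptors 7 were tested, 2 above and 5 below 0 with a median of -0.018. ADAMTS1 is named because it was called in the fit without array 2. Of 9 genes related to the binding proteins, CCN1 gave 0.00073 and CCN2, connective tissue growth factor, -0.019 (-0.21 to 0.18, 3 arrays). Of 4 insulin genes only IDE, an insulin-degrading protease, was tested, at 0.06. INSR, IRS1, IRS2, PAPPA, STC1, IGFBP1, IGF2BP2 and IGF2BP3 were not tested here.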

How the data were processed

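Anterior pituitary RNA of 4 arrays was analysed. The deposited scanner files (Agilent Feature Extraction 10.7.3.1, array design 026440, per the file headers) hold a linear intensity per spot and channel and a red over green log10 ratio. The deposited series matrix gives log2 ratios, within 0.01 of the scanner's processed ratio for 99.99% of probes once the sign was turned on the arrays with treated RNA in Cy3. Its columns were not centred (medians -0.04, 0.08, 0.04 and -0.05).

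From the median intensity, spots flagged as outliers (29 to 45 per array) or for uneven local background (939 to 1350 of 43803) were left out. Background was corrected with normexp (offset 50), ratios were normalized by loess (span 0.3, control spots at weight 0), and spots of a probe were averaged. Probes well above background in treated or in control RNA on at least 3 of 4 arrays, with values on at least 3, were tested with limma 3.58.1 in R 4.3.3: a dye term and a treatment term, eBayes, two-sided, Benjamini-Hochberg over 25912 probes, threshold 0.05, 95% intervals. The script was tested on simulated data. Treated and control RNA are paired by sharing an array. Levels are log2 values after Aquantile scaling between arrays, and the span is the highest minus the lowest array.

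The brightest tested probe stands for a gene. Symbols came from RefSeq (Sscrofa11.1, names and gene order only) by accession without version, which matched 5578 of 43603 probes. All 10 members are named, with 14 listed pathway genes and any list gene with an unadjusted p under 0.05. ADAMTS1, PLAU, CCN1 and IDE are named outside that rule. The members, the gene lists and the alternatives were chosen with earlier results of these data known, and the comparison of levels between arrays was added after the data were seen. One gene of the pathway lists is not reported here by name. The number of arrays limits the precision.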

Additional observations from a re-analysis of the deposited data

Results flagged for a closer look

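The treated over control log2 ratio of IGFBP6 at its brighter probe was -0.017 on array 4, while the other 3 arrays lay between 0.11 and 0.12. Array 4 stood far from the others by Dixon's criterion at 95%. Of 32 sets of 4 values examined (ratios and levels of the member probes), this was the only one, and chance gives about 1 in 20, or 1.6 of 32.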

How the results depend on the processing

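The count of member genes called was 0 under all 13 planned settings, of which 12 called 0 of all probes as well. Of the member genes' ratios under the planned settings, 95 kept their sign and 8 turned. IGFBP3 had a ratio of 0.07 with no filter on dim probes. Those that turned were IGFBP4 and IGFBP5 from the scanner software log ratio and from the series matrix (0.0059 and -0.035 from both), IGF1R as the mean of its probes (-0.0012), IGF1 with normexp fitted on all spots (-0.0082), and IGF1 (-0.11) and IGFBP7 (-0.22) with Cy5 read as treated throughout. That last reading called 2331 of all 25912 tested probes and none of the 8 member genes, each read at 1 probe. The other member probes were not counted under it. At such a share, 0 of 8 genes says little about the members. Without 1 array at a time, ratios ran from 0.039 to 0.22 for IGF2, -0.018 to 0.078 for IGF1R, -0.056 to 0.022 for IGFBP2, -0.068 to 0.020 for IGFBP4 and -0.14 to 0.15 for IGFBP5. Without array 1, 2 or 3 the IGFBP2 value is from its dimmer probe. The count of all probes called ran from 0 to 838 and that of the pathway genes from 0 to 3. The median ratio of the member genes was 0.081 with median centring and ran from 0.022 to 0.079 without 1 array. The strict filter left IGFBP4 without a value. The cause of these shifts was not tested. The share of all probes spanning at least 2-fold between arrays was 4.13%, and between 4.84% and 13.6% under other scalings. Without array 2 the spans of IGFBP2, IGF1R and IGF1 were 0.30, 0.07 and 0.06 on the log2 scale. Signal close to background limits IGFBP3 and IGFBP4.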
